A study of Mus musculus with 16 samples.

Results

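Homeostatic microglia are recognised by a small set of receptors and markers that are high in the resting brain, several of which, such as Tmem119 and P2ry12, are known to fall when microglia become activated, while Aif1 is known to rise. Expression of 9 of these genes (Csf1r, Cx3cr1, P2ry12, P2ry13, Gpr34, Siglech, Tmem119, Olfml3 and Aif1) was followed here across all libraries of the series. They were chosen by gene symbol, and all 9 were found among the 21878 genes with deposited counts. The libraries came from 16 female wild-type C57BL/6 mice, 8 weeks old, with 8 mice per group and 1 library per mouse. EAE (experimental autoimmune encephalomyelitis, a mouse model of multiple sclerosis) was induced with the myelin peptide MOG35-55 in complete Freund's adjuvant, with 200 ng of pertussis toxin on days 0, 2 and 7. The control mice received PBS by the same injections, and whether their PBS came with adjuvant or toxin is not given in the sources used here. In the treatment field of the labels the last residue of the peptide rises from 55 in EAE 1 to 62 in EAE 8. Brains were taken at the peak of disease, 14 days after immunization, at clinical scores of 3 to 4, and CD11b+/CD45int cells were sorted as microglia. Libraries are named by group and replicate number, and p-values measure the spread between these mice.

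Several of these genes work as sensors. CSF1R is the receptor tyrosine kinase that microglia need for survival, and CX3CR1 binds fractalkine, a chemokine made by neurons. P2Y12 and P2Y13 are Gi-coupled receptors for ADP, and P2Y12 drives the movement of microglial processes toward injured cells. GPR34 senses lysophosphatidylserine. Siglec-H belongs to the family of sialic acid-binding lectins and signals through the adaptor DAP12, encoded by Tyrobp. TMEM119 is a surface protein, OLFML3 is secreted, and AIF1 (IBA1) is the actin-binding cytoplasmic protein used to stain microglia in tissue sections.

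Sequencing gave 24587443 to 30244215 counts per library for EAE mice and 26031889 to 34184576 for PBS-treated mice. Together the 9 genes held 0.0227% to 0.0359% of them in the EAE group and 0.0177% to 0.0343% in the PBS group. EAE 6, 7 and 8 were more alike than any other pairs of their group, as were PBS 5, 7 and 8, although no source names a batch. The squared difference between 2 libraries, divided by that of counting noise, was 3.11 to 3.59 among these EAE libraries and 5.94 to 23.4 for the other EAE pairs. It was 3.29 to 4.03 among these PBS libraries and 7.08 to 22.5 for the other PBS pairs. These libraries were picked from the same data, by a value under 5. Their spread within groups is therefore small by choice, and p-values within them do not measure the spread between all mice.

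The labelled cell type did not match the most abundant markers. Per gene, the 9 homeostatic genes averaged 5.72 to 12.2 FPKM (fragments scaled by gene length and library total) per library. In the same libraries 7 neuronal genes averaged 102 to 139 FPKM, 7 astrocyte genes 158 to 240 FPKM and 5 oligodendrocyte genes 138 to 203 FPKM. All 3 lists were above the homeostatic genes in 16 of 16 libraries, and the neuronal list was at least 10.2 times higher per gene. Itgam and Ptprc, which encode the sorted surface proteins CD11b and CD45, averaged 3.12 to 5.83 FPKM per gene. These libraries are therefore named by their labels, without taking the RNA as that of microglia alone. In such bulk samples, fewer cells of a type and less RNA per cell cannot be told apart.

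**Figure D1:**
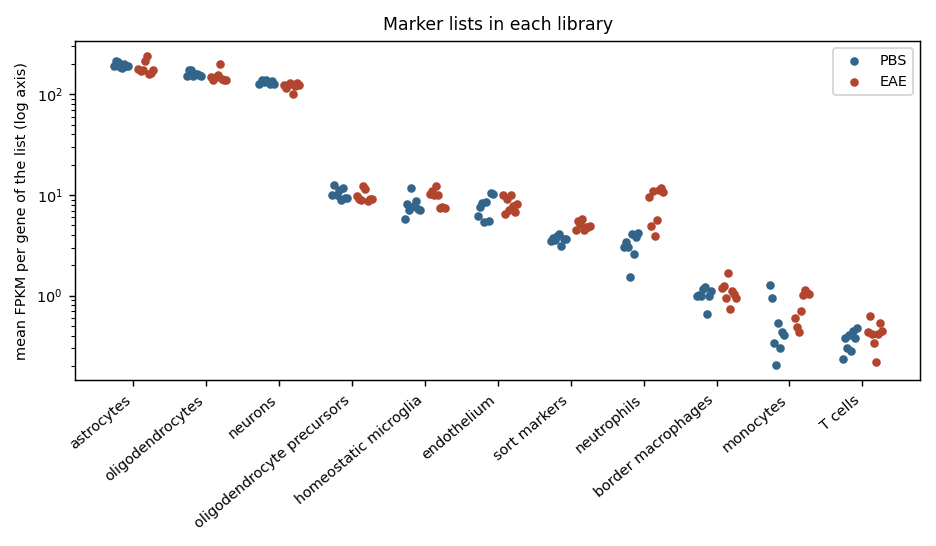
Mean FPKM per gene of each marker list (y axis, log scale) in the 8 PBS libraries and the 8 EAE libraries, with 1 point per library. The astrocyte, oligodendrocyte and neuronal lists lie between 102 and 240 FPKM per gene, above the homeostatic microglia genes at 5.72 to 12.2 FPKM in every library.

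None of the 9 homeostatic genes differed between EAE and PBS-treated mice in edgeR's quasi-likelihood test at an adjusted p under 0.05, and 0 of 9 did so in DESeq2. Of all 17885 genes tested, 433 (2.42%) passed this threshold, with 118 higher and 315 lower in EAE mice, and 21 (0.117%) also had an absolute log2FC over 1. The fitted log2FC was above 0 for 8 of the 9 genes and below 0 for Aif1, with a median of 0.17 against 0.01 for all genes tested. The lowest bound of any 95% confidence interval was -0.48 and the highest was 0.94, so all 9 intervals lay inside -1 to 1. Olfml3 was the single member with an unadjusted p under 0.05, a threshold that 3118 genes (17.4%) passed. The FPKM values of the groups overlapped for all 9 genes. In the exact permutation test on mean FPKM, over all 12870 divisions of the libraries, no homeostatic gene (0 of 9) reached an unadjusted p under 0.05, against 3298 genes (18.4%) in all. Without PBS 4 this test gave an unadjusted p under 0.05 for 4 of the 9 (P2ry12, P2ry13, Cx3cr1 and Olfml3), where 19.6% of all genes did so. PBS 4 was the highest PBS library for 8 of the 9 genes, so leaving it out was bound to raise their differences. The count of 4 therefore describes the part of that library and no more. EAE 4 was in turn the highest EAE library for Tmem119, P2ry12, P2ry13, Cx3cr1, Gpr34 and Olfml3. Leaving out EAE 4 was bound to lower their differences, and the edgeR log2FC was then 0.39 for Olfml3 and -0.0137 for Gpr34. Of the 16 edgeR fits that each left out 1 library, the fit without PBS 4 gave the highest log2FC for all of the 9 genes except Siglech. The log2FC then ran from 0.06 to 0.17 for Csf1r (lowest without EAE 5), 0.29 to 0.54 for Cx3cr1 (lowest without EAE 4 or PBS 6), 0.18 to 0.38 for P2ry12 (lowest without EAE 4) and 0.09 to 0.34 for Siglech (lowest without EAE 5, highest without PBS 6).

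**Figure D2:**
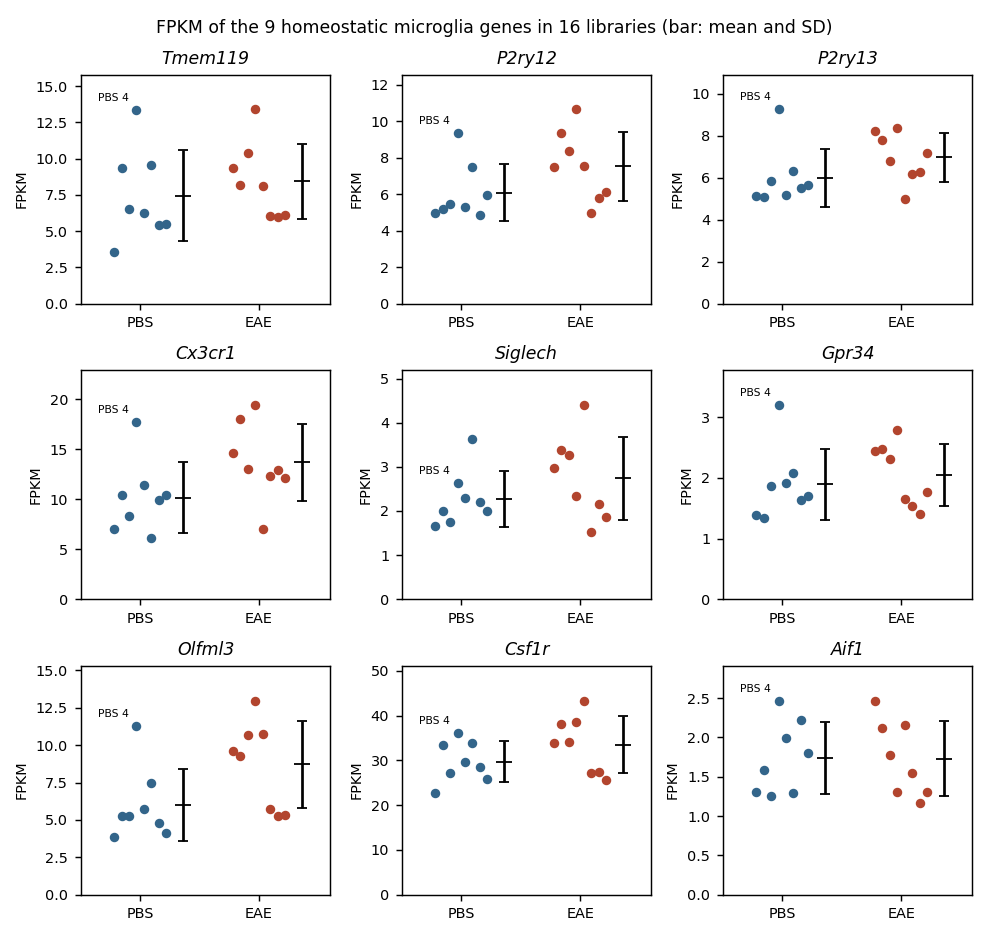
FPKM of each gene (y axis, from 0) in the 8 PBS and 8 EAE libraries, 1 point per library in replicate order, with the mean and SD beside them. PBS 4 is labelled and is the highest PBS library for 8 of the 9 genes, and the groups overlap in every panel.

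Csf1r was the most abundant of the genes. Its FPKM in EAE libraries had a lowest value of 25.5, a median of 34.04 and a highest of 43.4, and in PBS libraries these values were 22.7, 29.1 and 36.2. The groups overlapped, with 3 EAE libraries above the highest PBS library and the lowest EAE values in EAE 6, 7 and 8. The log2FC was 0.12 (SE 0.11, 95% interval -0.10 to 0.34, adjusted p = 0.591 by edgeR). The coefficient of variation of Csf1r was 19.0% in EAE and 15.3% in PBS libraries, the smallest of the 9 genes in PBS libraries but above that of P2ry13 (16.6%) in EAE libraries, and counting error alone gives 1.61%. In the GENCODE annotation (vM21) Csf1r shares 873 of its 5774 exonic bases with Hmgxb3 on the opposite strand, which also bears on every ratio to Csf1r given further on.

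Cx3cr1 was the next most abundant gene. Its lowest, median and highest FPKM were 7.04, 12.9 and 19.4 in EAE libraries and 6.10, 10.1 and 17.7 in PBS libraries. Its gene overlaps 6 genes on the opposite strand and shares 78 of its 4505 exonic bases with them. In 7 of 8 EAE libraries Cx3cr1 was above the PBS median, and the exception was EAE 5, the lowest of that group. The log2FC was 0.37 (SE 0.19, 95% interval -0.02 to 0.76), with an adjusted p of 0.310 from edgeR, and the exact permutation test on FPKM gave p = 0.0791. Among the 6 libraries most alike, the 3 EAE values of 12.1 to 12.9 FPKM did not overlap the 3 PBS values of 9.89 to 11.4 FPKM. In that comparison Cx3cr1 had a log2FC of 0.21 and an adjusted p of 0.0139 from edgeR, where 24.1% of all genes tested were called. These libraries were chosen for small spread within groups, which lowers such p-values. The share of all genes whose groups do not overlap there is not given, and 3 against 3 cannot go below an exact permutation p of 0.1. Among the remaining libraries, 5 per group, its adjusted p from edgeR was 0.601 and 0.0745% of genes were called.

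P2ry12 and P2ry13 are neighbours on chromosome 3 (GRCm38). P2ry12 lies at chr3:59216272-59262871 and P2ry13 at chr3:59207892-59210882, both on the minus strand and inside Med12l (chr3:59005825-59318682), which is on the plus strand. P2ry13 shares 0 exonic bases with Med12l and P2ry12 shares 9 of its 2546. The libraries were stranded, but the strand setting of the counting is not stated, so reads of opposite strands could not be told apart here for P2ry12, P2ry13 or the other members that overlap a gene on the opposite strand (Csf1r, Cx3cr1 and Gpr34). The lowest, median and highest FPKM of P2ry12 were 4.99, 7.52 and 10.6 in EAE libraries and 4.88, 5.39 and 9.34 in PBS libraries. All but 1 of the EAE libraries exceeded the PBS median, and the groups overlapped. P2ry12 had a log2FC of 0.26 (SE 0.15, adjusted p = 0.395 by edgeR). For P2ry13 the same 3 values were 4.97, 6.98 and 8.35 FPKM in EAE libraries and 5.07, 5.58 and 9.25 FPKM in PBS libraries. The highest P2ry13 value of all belonged to PBS 4 and the lowest to EAE 5. P2ry13 had a log2FC of 0.17 (SE 0.12, adjusted p = 0.521 by edgeR), and 0.28 without PBS 4 (adjusted p = 0.106). Among the 6 libraries most alike, the 3 EAE values of 6.18 to 7.15 FPKM lay above the 3 PBS values of 5.16 to 5.63 FPKM (log2FC 0.23, adjusted p = 0.0677 by edgeR), and among the remaining libraries the groups overlapped (log2FC 0.12). As for Cx3cr1, the share of all genes that separate in the libraries most alike is not given, so this does not set P2ry13 apart.

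The start windows of 4 of the genes are shown. P2ry12 and P2ry13 were taken as related receptors that share a locus. Cx3cr1 and Siglech were taken because they diverged most across the libraries, as described further on. Windows were taken from RefSeq (GRCm38.p6), from 250 bases before to 50 bases after the start, 5′ to 3′ on the gene's strand, and 6 of the 9 genes had one. They lie at chr3:59262936-59263235 for P2ry12 (minus strand), chr3:59210833-59211132 for P2ry13 (minus strand), chr9:120068247-120068546 for Cx3cr1 (minus strand) and chr7:55767934-55768233 for Siglech (plus strand). Capitals mark GAGGAA, the core recognised by the myeloid factor PU.1, or its reverse complement TTCCTC.
P2ry12: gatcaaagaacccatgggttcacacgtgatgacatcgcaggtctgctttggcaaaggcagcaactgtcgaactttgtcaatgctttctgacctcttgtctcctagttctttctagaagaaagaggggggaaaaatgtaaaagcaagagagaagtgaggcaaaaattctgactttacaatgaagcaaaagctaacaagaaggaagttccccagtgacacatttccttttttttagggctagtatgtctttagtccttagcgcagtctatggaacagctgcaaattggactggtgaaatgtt
P2ry13: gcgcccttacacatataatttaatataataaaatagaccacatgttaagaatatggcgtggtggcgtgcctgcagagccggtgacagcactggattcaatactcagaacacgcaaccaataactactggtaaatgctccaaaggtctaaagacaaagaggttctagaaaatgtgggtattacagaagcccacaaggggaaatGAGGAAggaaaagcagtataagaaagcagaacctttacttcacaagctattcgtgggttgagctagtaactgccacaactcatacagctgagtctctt
Cx3cr1: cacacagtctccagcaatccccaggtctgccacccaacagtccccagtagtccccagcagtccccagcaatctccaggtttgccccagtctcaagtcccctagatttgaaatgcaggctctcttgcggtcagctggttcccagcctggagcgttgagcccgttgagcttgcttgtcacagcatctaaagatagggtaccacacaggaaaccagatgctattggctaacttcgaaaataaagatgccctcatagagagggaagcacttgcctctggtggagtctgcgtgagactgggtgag
Siglech: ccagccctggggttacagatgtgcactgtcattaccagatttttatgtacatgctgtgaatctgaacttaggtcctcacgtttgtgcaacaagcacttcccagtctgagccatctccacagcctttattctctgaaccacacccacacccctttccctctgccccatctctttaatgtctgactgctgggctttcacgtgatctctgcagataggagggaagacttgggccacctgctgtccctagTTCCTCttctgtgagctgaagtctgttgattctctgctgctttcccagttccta

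GAGGAA was found on either strand in the windows of P2ry13 (48 bases before the start), Siglech (4 bases before) and Aif1 (7 bases before), and in 28.3% of all 32851 windows of this length. The motif GGAANNGAA, a PU.1 site joined to an IRF half-site, was in 0 of the 6 windows and in 8.24% of all windows. Its first letters can also be the last ones of GAGGAA. The SMAD-type motif CAGAC was found in the windows of P2ry12, Cx3cr1 and Siglech and in 49.6% of all windows. These matches describe the letters of the windows and not binding.

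Gpr34 was among the 3 genes of lowest level. It lies on chromosome X at 13632089-13640858 (plus strand), inside Cask on the opposite strand, with 0 shared exonic bases. Its lowest, median and highest FPKM were 1.40, 2.04 and 2.78 in EAE libraries and 1.34, 1.79 and 3.20 in PBS libraries. PBS 4 held the highest value of all, and 4 of 8 EAE libraries were above the PBS median. Gpr34 had a log2FC of 0.06 (SE 0.17, 95% interval -0.30 to 0.41, adjusted p = 0.8999 by edgeR).

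Siglech had lowest, median and highest FPKM of 1.51, 2.66 and 4.40 in EAE libraries and 1.65, 2.11 and 3.63 in PBS libraries. Its highest values were those of EAE 5 and PBS 6, the libraries with the lowest Cx3cr1 of their groups. The log2FC of Siglech was 0.22 (SE 0.19, adjusted p = 0.583 by edgeR). It was 0.43 within the 10 libraries that were less alike and -0.26 within the 6 most alike, and neither passed the threshold (adjusted p = 0.480 and 0.178 by edgeR).

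Tmem119 spread more widely among PBS-treated mice than the other genes. The lowest, median and highest FPKM were 3.56, 6.39 and 13.3 in PBS libraries, a 3.75-fold range, and 5.98, 8.15 and 13.4 in EAE libraries, a 2.24-fold range. PBS 1 was lowest and PBS 4 highest of the PBS libraries, and EAE 6, 7 and 8 were lowest of the EAE libraries. Tmem119 had a log2FC of 0.13 (SE 0.21, 95% interval -0.32 to 0.57, adjusted p = 0.816 by edgeR), which was 0.0042 without EAE 4 and 0.30 without PBS 4.

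Olfml3 had the largest fitted difference of the 9 genes. Its lowest, median and highest FPKM were 5.28, 9.45 and 12.97 in EAE libraries and 3.83, 5.26 and 11.3 in PBS libraries. All 8 EAE libraries were above the PBS median, but EAE 6, 7 and 8 lay at 5.28 to 5.72 FPKM and PBS 4 exceeded 7 of the EAE libraries. Olfml3 had a log2FC of 0.49 (SE 0.21, 95% interval 0.05 to 0.94), with an unadjusted p of 0.0318 and an adjusted p of 0.234 from edgeR. The exact permutation test on FPKM gave p = 0.0651. Of the 16 edgeR fits that each left out 1 library, Olfml3 was called only in the fit without PBS 4. PBS 4 was the highest PBS library for Olfml3, so leaving it out was bound to raise the difference. Without EAE 4, the highest EAE library for Olfml3, the log2FC was 0.39 (adjusted p = 0.287 by edgeR). Without PBS 4 the log2FC was 0.69 with an adjusted p of 0.0441 from edgeR, in a fit that called 3.2% of all genes tested, and 1 of the 9 genes was called. Within the 6 libraries most alike its log2FC was 0.12 (adjusted p = 0.509 by edgeR).

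Aif1 was the least abundant gene, with 33 to 67 counts in each EAE library and 35 to 78 in each PBS library. Its lowest, median and highest FPKM were 1.17, 1.67 and 2.46 in EAE libraries and 1.25, 1.69 and 2.47 in PBS libraries, nearly the same range. The log2FC was -0.06 (SE 0.20, 95% interval -0.48 to 0.35, adjusted p = 0.913 by edgeR). Counting error alone gives a coefficient of variation of 14.003%, against the 27.4% and 26.4% seen in EAE and PBS libraries. Within the 6 libraries most alike, the 3 EAE values of 1.17 to 1.55 FPKM lay below the 3 PBS values of 1.80 to 2.22 FPKM (log2FC -0.61, adjusted p = 0.125 by edgeR), and among the remaining libraries the log2FC was 0.24. Here too the share of all genes that separate in the libraries most alike is not given.

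The order of levels was similar but not identical in both groups. Csf1r was above Cx3cr1 in 8 of 8 libraries of each group, and Cx3cr1 was above the next gene in 7 of 8. Olfml3, Tmem119, P2ry12 and P2ry13 formed a middle tier from 5.97 to 8.71 FPKM. Within it the order of neighbours varied between libraries, and their differences were not tested. Tmem119 exceeded P2ry12 in 6 of 8 libraries of each group, and P2ry12 exceeded P2ry13 in 4 of 8 EAE and 5 of 8 PBS libraries. Olfml3 came right after Cx3cr1 in EAE libraries and last of this tier in PBS libraries. Siglech, Gpr34 and Aif1 formed the lowest tier, from 1.73 to 2.74 FPKM, and the gene just above it exceeded Siglech in 8 of 8 libraries of each group. Siglech was above Gpr34 in 6 of 8 libraries of each group, and Gpr34 above Aif1 in 5 of 8 EAE and 4 of 8 PBS libraries. The order of these neighbours thus also varied between libraries, and their differences were not tested.

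Of 17 other genes of the homeostatic state, 1 was called higher and 0 lower, where 2.42% of all genes tested were called in either direction, and the median log2FC was 0.08. The log2FC of P2ry6, the UDP receptor that triggers phagocytosis, was 0.53 (SE 0.12, adjusted p = 0.0277 by edgeR), from 2.00 ± 0.34 FPKM (SD, n = 8) in PBS-treated mice to 2.996 ± 0.48 FPKM in EAE mice. Its adjusted p from edgeR was over 0.05 without EAE 2, PBS 2 or PBS 3, with 0.0610 the highest. The next smallest p-values were those of Fcrls (log2FC 0.45), Sparc (log2FC -0.22) and Cst3 (log2FC -0.19), with adjusted p of 0.177 to 0.212 from edgeR. Cst3 and Sparc are also made by other brain cells. Cst3 stood at 899 ± 152 FPKM (SD, n = 8) in EAE mice and 989 ± 66.5 FPKM in PBS-treated mice, far above the 9 genes.

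Among 9 genes for ligands, adaptors and signalling partners of these receptors, 0 were called higher and 2 lower. Over all genes tested, 2.42% were called in either direction. The log2FC of Cx3cl1, which encodes the fractalkine bound by CX3CR1, was -0.35, lower in EAE mice (SE 0.07, adjusted p = 0.0115 by edgeR). Its FPKM was 108 ± 13.5 (SD, n = 8) in EAE and 132 ± 10.2 in PBS-treated mice, and the highest EAE library, at 136, overlapped the PBS range of 122 to 148. Cx3cl1 kept an adjusted p under 0.05 in 16 of 16 edgeR fits that each left out 1 library. In the same libraries 2 of 7 neuronal markers, Syt1 and Gad1, were also called lower (log2FC -0.28 and -0.53, adjusted p = 0.0326 and 0.00309 by edgeR), and their part in the Cx3cl1 result was not tested. Gad1 was called in 16 of 16 fits that left out 1 library and Syt1 in 9, its call being ended by EAE 1, 2 or 3 or PBS 2, 3, 5 or 7 (highest adjusted p = 0.0781 by edgeR). Abhd12, a lipase that degrades lysophosphatidylserine, fell by 0.19 (SE 0.05, adjusted p = 0.0306 by edgeR), and it was called in 8 of 16 fits that left out 1 library, with the call ended by EAE 1, 2, 3, 6 or 8 or PBS 2, 3 or 7 (highest adjusted p = 0.0742). Tyrobp had a log2FC of 0.19 and Csf1, a ligand of CSF1R, one of 0.15 (adjusted p = 0.382 and 0.383 by edgeR). Il34, the other CSF1R ligand, was named after its value was seen and had a log2FC of -0.08 (adjusted p = 0.669 by edgeR).

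**Figure D3:**
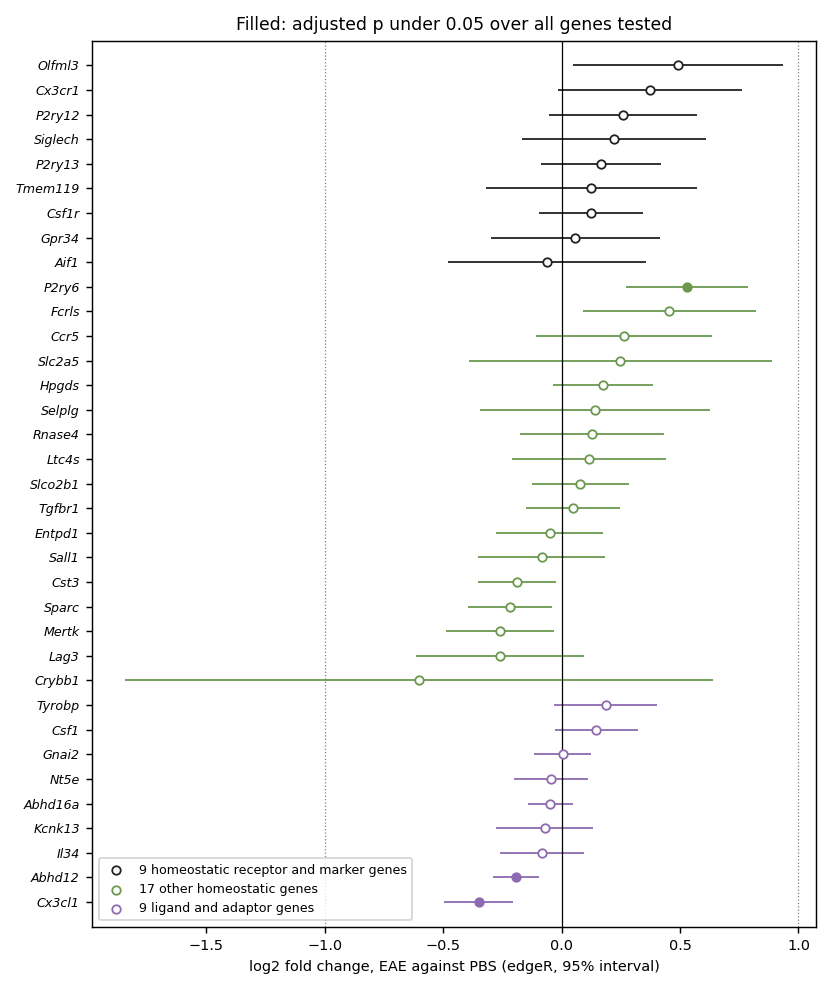
Log2 fold change of EAE against PBS (x axis) with its 95% confidence interval from edgeR for the 9 homeostatic receptor and marker genes, 17 other homeostatic genes and 9 ligand and adaptor genes. Filled points have an adjusted p under 0.05, which holds for P2ry6, Cx3cl1 and Abhd12, and the intervals of all 9 homeostatic receptor and marker genes lie inside -1 to 1.

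Of the genes that surround P2ry12 and P2ry13, 3 were examined, with 0 calls in edgeR and in DESeq2. An unadjusted p under 0.05 in edgeR was reached by 2 of them, and by 17.4% of all genes tested. Med12l had a log2FC of 0.07 (adjusted p = 0.538 by edgeR). The receptor genes P2ry14 and Gpr171, which also lie inside Med12l on its opposite strand, both had a log2FC of 0.34, with adjusted p of 0.135 and 0.188 from edgeR. Med12l itself was at 15.1 ± 0.45 FPKM (SD, n = 8) in EAE mice and 13.9 ± 1.48 FPKM in PBS-treated mice, above P2ry12, P2ry13, P2ry14 and Gpr171.

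Of 12 genes of the damage-associated state, 1 was called higher and 1 lower, where 2.42% of all genes tested were called in either direction. The median log2FC of this list was 0.16. The log2FC of Trem2, the lipid-sensing receptor that pairs with DAP12, was 0.56 (SE 0.13, adjusted p = 0.0282 by edgeR), from 5.97 ± 0.85 to 9.13 ± 2.25 FPKM (SD, n = 8). The adjusted p of Trem2 from edgeR passed 0.05 without EAE 2 or PBS 2, 3, 5 or 7, reaching 0.0661. Apoe fell by 0.30 (SE 0.08, adjusted p = 0.0437 by edgeR), and it was called in 4 of 16 fits that left out 1 library. Its call was ended by EAE 1, 2, 3, 6, 7 or 8 or PBS 2, 3, 5, 6, 7 or 8 (highest adjusted p = 0.104 by edgeR). The next smallest p-values of this list were those of Axl (log2FC -0.15) and Clec7a (log2FC 0.71, at 7 to 33 counts per library), both with an adjusted p of 0.25 by edgeR. Itgam rose by 0.46 (SE 0.07, adjusted p = 0.00180 by edgeR), from 5.77 ± 0.47 to 8.24 ± 0.76 FPKM (SD, n = 8), and was called in 16 of 16 such fits. Ptprc, the other gene of the sorted proteins, had a log2FC of 0.17 (adjusted p = 0.406 by edgeR). Gfap, the intermediate filament of astrocytes, rose by 0.50 (adjusted p = 0.0312 by edgeR), a call kept in 8 of 16 fits and ended by EAE 1, 2, 3 or 8 or PBS 1, 2, 3 or 6 (highest adjusted p = 0.0720). Of 5 neutrophil genes, S100a8, S100a9, Ngp and Ltf were called higher, and the list averaged 3.91 to 11.6 FPKM per gene in EAE and 1.52 to 4.21 FPKM in PBS libraries. No gene of the monocyte (4 genes), border macrophage (6 genes) or T cell (4 genes) lists was called by edgeR. The same held for the endothelial (4 genes), oligodendrocyte (5 genes) and oligodendrocyte precursor (2 genes) lists, and DESeq2 called 0 genes of all these lists. An unadjusted p under 0.05 in edgeR was reached by 2 T cell genes and 1 oligodendrocyte gene, and by 17.4% of all genes tested. Cd3d was listed at 0 in 12 of 16 libraries. Of the 13 genes called in the lists named so far, 10 were also called within the libraries most alike, all but P2ry6, Trem2 and Gfap, in a fit that called 24.1% of all genes tested. These libraries are among the 16 that gave the calls and were chosen for small spread, so this is no separate support. Within the remaining libraries, where 0.0745% of genes were called, Gfap alone was. The part of these cells in the values of the homeostatic genes was not tested.

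The variation of the 9 genes among libraries of a group is shown in the map of deviations. Deviations of log2 CPM (counts scaled to the TMM library size) from the group mean were correlated over the 16 libraries, as a description, since the points share depth and tissue make-up with each other. The 36 pairs had a median Pearson r of 0.56, with 35 above 0 and 20 above 0.5. Without PBS 4 the median was 0.43, with 16 pairs above 0.5, and within the alike and remaining libraries taken separately it was 0.47, with 17 pairs above 0.5. Without EAE 5 and PBS 6, chosen after the data were seen, it was 0.75, with 32 pairs above 0.5. Tmem119, P2ry12, Gpr34 and Olfml3 were the tightest set, with r from 0.75 to 0.89 in their 6 pairs, 0.77 to 0.93 within EAE and 0.69 to 0.90 within PBS libraries. Without PBS 4, the library highest in all 4 of them among PBS libraries, their r was 0.63 to 0.85. With deviations taken within the alike and remaining libraries separately, it was 0.67 to 0.87. Olfml3 and Csf1r (r = 0.87), P2ry13 and Gpr34 (r = 0.85), Siglech and Csf1r (r = 0.79) and Cx3cr1 and P2ry13 (r = 0.72) were also close. The locus neighbours P2ry12 and P2ry13 had r = 0.70, with 0.92 within PBS and 0.46 within EAE libraries.

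**Figure D4:**
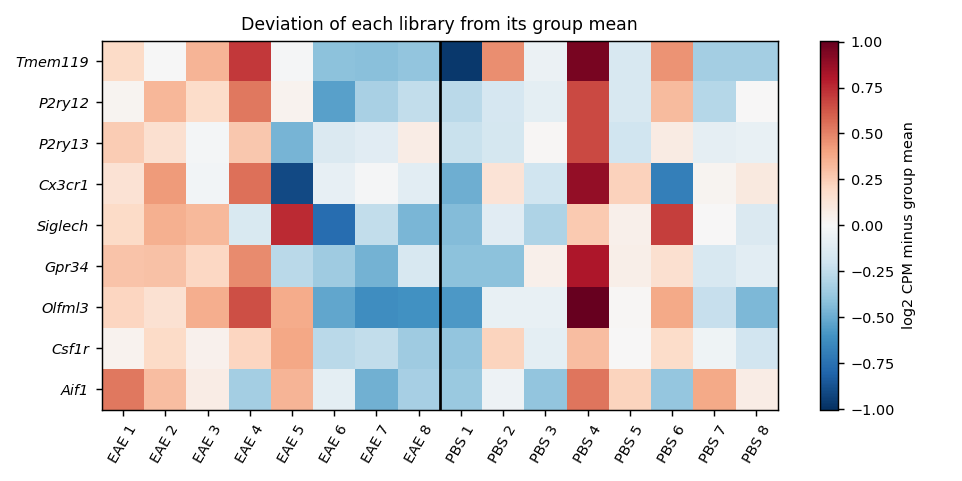
Deviation of log2 CPM from the group mean (colour, red above and blue below) for each of the 9 genes (rows) in each library (columns, EAE left of the line). PBS 4 is red throughout, EAE 6 to EAE 8 are blue for most genes, and EAE 5 and PBS 6 show Cx3cr1 low beside Siglech high.

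Aif1 and Cx3cr1 followed the others least. Aif1 had r from 0.22 to 0.50 with the other 8 genes, at counts low enough for counting error to add to its spread. Over the 16 libraries Cx3cr1 and Siglech were the only pair below 0, with r = -0.17, and this value was 0.59 without EAE 5 and PBS 6. Within EAE libraries 6 pairs were below 0, which were Cx3cr1 with Siglech (r = -0.32), Aif1 (r = -0.22) and Csf1r (r = -0.10) and P2ry13 with Siglech (r = -0.22), Csf1r (r = -0.09) and Aif1 (r = -0.04). Within PBS libraries 0 pairs were below 0, without PBS 4 there were 4, and with the alike and remaining libraries taken separately 2.

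Expressed against Csf1r within each library, 1 of 8 genes differed between the groups at an unadjusted p under 0.05, where 10.9% of the 16118 genes compared in this way did so. The log2 ratio of Olfml3 to Csf1r had a lowest, median and highest value of -2.37, -2.03 and -1.57 in EAE libraries and -2.68, -2.47 and -1.69 in PBS libraries. The mean ratio was higher by 0.38 in EAE mice (exact permutation test, two-sided p = 0.0317, adjusted p = 0.399 over all genes compared), so it did not pass after adjustment. Without PBS 4, the PBS library with the highest ratio, the exact permutation p was 0.00357. Leaving out PBS 4 was bound to raise the difference, and the share of all genes that pass without it is not given. The p of Olfml3 was over 0.05 without EAE 1, 3 or 4 or PBS 1, 2, 7 or 8 (highest p = 0.0605, exact permutation test). For the other 7 genes the difference in log2 ratio lay between -0.18 (Aif1) and 0.28 (Cx3cr1), with exact permutation p-values from 0.267 to 0.771.

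The ratio to Csf1r set EAE 5 and PBS 6 apart. Cx3cr1 was at 16.2% of the Csf1r level in EAE 5 and at 38.0% to 50.4% in the other 7 EAE libraries. In PBS 6 it was at 18.03%, against 30.7% to 48.9% in the other 7 PBS libraries. Siglech went the other way, at 10.1% of Csf1r in EAE 5 and 10.7% in PBS 6, against 5.55% to 9.60% in the other EAE and 5.95% to 7.77% in the other PBS libraries. P2ry13 was low in EAE 5, at 11.5% against 19.97% to 28.01%, but within the range of its group in PBS 6, at 18.7% against 15.1% to 25.5%. Gpr34 did the same, at 3.81% against 5.13% to 7.23% in EAE 5 and 6.15% against 4.01% to 8.84% in PBS 6. The log2 ratios of P2ry12 (-2.53) and Tmem119 (-2.42) were also lowest of the EAE group in EAE 5. Csf1r, the shared denominator, was highest of the 16 libraries in EAE 5, at 43.4 FPKM. Without EAE 5 the difference in the ratio of Cx3cr1 to Csf1r between groups was 0.46 (exact permutation p = 0.00855), against 0.28 with all libraries (exact permutation p = 0.294) and 0.15 without PBS 6 (exact permutation p = 0.573). Without both it was 0.34 (exact permutation p = 0.0134). EAE 5 and PBS 6 were singled out by these same ratios, so these p-values describe the part of each library and no more. The share of all genes with a p under 0.05 in this test was 8.61% without EAE 5, 12.7% without PBS 6 and 9.7% without both. EAE 5 also held the highest astrocyte (240 FPKM per gene) and oligodendrocyte (203 FPKM per gene) levels and the lowest neuronal level (102 FPKM per gene) of the 16 libraries. PBS 6 held neither, at 201, 159 and 127 FPKM per gene. In both libraries several measures were the lowest of their group. Border macrophage genes averaged 0.740 FPKM per gene in EAE 5 and 0.648 in PBS 6, and Itgam and Ptprc together 4.47 and 3.12 FPKM per gene. The log2 ratio to Csf1r was -2.54 and -2.78 for Itgam and -4.13 and -4.55 for P2ry6 in EAE 5 and PBS 6, and the part of other cells in these ratios was not tested.

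**Figure D5:**
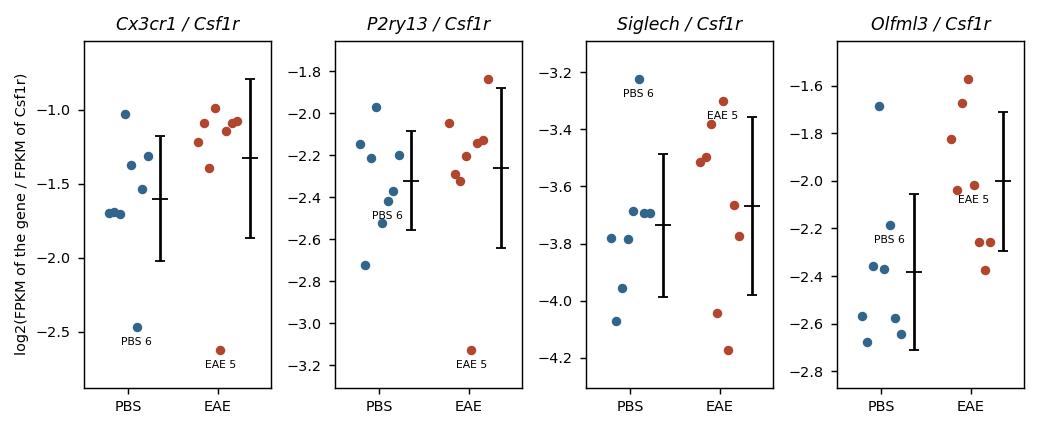
Log2 ratio of the FPKM of Cx3cr1, P2ry13, Siglech and Olfml3 to that of Csf1r (y axes) in the 8 PBS and 8 EAE libraries, with the mean and SD. EAE 5 and PBS 6 are labelled: they are lowest for Cx3cr1 in their groups, at -2.62 and -2.47, and highest for Siglech, at -3.30 and -3.22.

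The genes most alike in their deviations were named for each member among genes with a mean of at least 100 counts, by Pearson r over the 16 libraries. Each member was set against 12860 genes (12861 for Aif1), so the named genes are the top of a long ranking. The median r over all of them was 0.0062 (Siglech) to 0.056 (Olfml3). From 0 (Aif1) to 14 genes (P2ry13 and Gpr34) had an r over 0.9. For Csf1r the genes most alike were C1qb (r = 0.96), Zfp748 and Lrig3 (both r = 0.92). Olfml3 was followed most closely by Parvg (r = 0.95) and C1qa (r = 0.94). Cx3cr1 was closest to Fcgr1, Arhgdib and F11r (r = 0.91 to 0.92), and Siglech to Cd33, Slc40a1 and Bmf (r = 0.89 to 0.91). For P2ry12 they were Pcdh9, Zfp157 and Spag6l, and for P2ry13 Lrrc4c, Kcnj6 and Zfp971, all with r between 0.93 and 0.95. Tmem119 was closest to Gabrb1, Akap6 and Shisa4 (r = 0.94 to 0.95) and Gpr34 to Daam1, Mgat4c and Gm10037 (r = 0.92 to 0.93). The closest genes to Aif1, Umps, Fermt3 and Otud7b, reached r from 0.80 to 0.84. Between EAE and PBS-treated mice, the adjusted p of these 26 genes from edgeR ran from 0.183 (Spag6l) to 0.965 (Bmf).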

How the data were processed

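Total RNA depleted of ribosomal RNA was sequenced from 16 libraries, 1 per mouse. Per the labels and methods, the authors aligned the reads to GRCm38 with HISAT2 (2.1.0), counted them with HTSeq (0.11.2) and deposited raw counts and FPKM values of the same genes; the submitters' processing notes also name DESeq2 (1.22.2). The libraries were stranded and the study's supplement names RefSeq for annotation, but the strand setting of the counting is not given in the sources used here. In the deposited tables, FPKM was proportional to the count divided by the library total. Samples were grouped by the title label. Members and gene lists were chosen with earlier results of these data known.

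Counts were tested with edgeR's quasi-likelihood test (edgeR 4.0.16, R 4.3.3, TMM) for genes with at least 16 counts in total, with Benjamini-Hochberg adjustment over all 17885 genes. FPKM and log2 ratios to Csf1r, for genes with a count in every library, were compared by two-sided exact permutation tests over 12870 divisions. On simulated counts with a dispersion of 0.02 and 200 genes changed by a log2FC of 0.6, edgeR recovered 93.5% of them, with 6.03% false calls. The members spread more widely, with coefficients of variation of 15.3% to 41.9%, so this share is not their power. Genes named were all 9 members, the called genes of the homeostatic, ligand, neighbour, damage-associated and sort marker lists or, where fewer than 4 were called, those with the 4 smallest p-values, and up to 3 genes most alike to each member. Called genes of the other marker lists were named outside this rule. Promoters of P2ry12 and P2ry13 were shown by that rule, and those of Cx3cr1 and Siglech were chosen after their values were seen. Alternatives were RLE size factors, DESeq2 (1.42.0), other filters, a replicate block, library sets, another reference, other pseudocounts, and each library left out. Libraries held 24587443 to 34184576 counts. Some genes of the lists, and a comparison that used one of them, are not reported here.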

Additional observations from a re-analysis of the deposited data

Results flagged for a closer look

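Each group of 8 values of the 9 genes, as FPKM and as log2 ratio to Csf1r, was examined for a library far from the others, by whether its gap to the nearest value exceeded Dixon's critical share of the range for 8 values. Of 34 such sets 7 held one, where chance gives about 1 in 20 for any single set. The sets share libraries, the genes vary together and all ratios share Csf1r. The 7 are therefore not independent, and whether they exceed chance was not tested. PBS 4 stood above the other PBS libraries in FPKM of P2ry13 (9.25), Cx3cr1 (17.7) and Gpr34 (3.20). EAE 5 stood below the other EAE libraries in the log2 ratio to Csf1r of Cx3cr1 (-2.62) and of P2ry13 (-3.13). PBS 6 stood below the other PBS libraries in that of Cx3cr1 (-2.47) and above them in that of Siglech (-3.22).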

How the results depend on the processing

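The count of homeostatic genes called was 0 under RLE size factors, DESeq2, both other filters, the replicate block, the term for library sets, the remaining libraries and the removal of EAE 5 and PBS 6 (chosen after seeing the data), 1 (Cx3cr1) within the libraries most alike, and 0 to 1 when each library was left out (Olfml3 without PBS 4). Same-numbered EAE and PBS libraries correlated at -0.272 to 0.621, with 3 of 8 pairs over 0.1. Of the 8 EAE libraries 2 were closest to their own number, EAE 4 (r = 0.621) and EAE 8 (r = 0.367). Whether libraries of these numbers shared a factor was not tested. With the replicate block 0 homeostatic genes and 517 genes in all were called. Of the 17 other homeostatic genes 6 were called within the alike libraries, 0 within the remaining, 3 without EAE 5 and PBS 6, and 0 to 4 with 1 library left out. Of all genes, 899 were called by DESeq2, 768 with the term for library sets, 4147 within the alike libraries, 13 within the remaining, 853 without EAE 5 and PBS 6, and 144 (without PBS 2) to 1317 (without EAE 4) with 1 library left out. The number of the 9 genes with a log2FC above 0 was 5 within the alike libraries and 7 to 9 with 1 library left out. On FPKM, 0 to 4 of the 9 genes had an exact permutation p under 0.05 with 1 library left out, the 4 (P2ry12, P2ry13, Cx3cr1 and Olfml3) without PBS 4, where 19.6% of all genes did so. For ratios to Csf1r this number was 0 within the alike libraries (where 3 against 3 cannot go below an exact p of 0.1), 2 without EAE 5 and PBS 6, and 0 to 2 with 1 library left out.

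Uncalled values changed sign in some settings, and the cause was not tested. Within the alike libraries the log2FC was -0.261 for Siglech, -0.192 for Gpr34 and -0.0976 for Csf1r, and the log2 ratio of Siglech to Csf1r differed by -0.179. Within the remaining libraries the log2FC of Aif1 was 0.243, and the ratios to Csf1r differed by 0.023 for Aif1 and -0.104 for P2ry13. The ratio of Gpr34 differed by 0.132 with Aif1 as reference and 0.0446 without EAE 5 and PBS 6. With 1 library left out, the log2FC ranged from -0.0137 to 0.21 for Gpr34 and from -0.146 to 0.0275 for Aif1, and the FPKM difference of Aif1 from -0.112 to 0.096. The ratios to Csf1r then differed by -0.0173 to 0.159 for Tmem119, -0.138 to 0.0471 for Gpr34 and -0.00262 to 0.182 for P2ry13.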
